A study of Macaca mulatta with 5 samples.

Results

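RGS12, SNTB1, TSPAN18, IL19, SLC24A4, TRPC7, JHY and LIPG are 8 of the 21761 gene identifiers measured in single nuclei of rhesus macaque claustrum. They were chosen by their summed counts, which were far higher in claustrum-like excitatory nuclei than in other excitatory nuclei of these libraries, so that difference is given below as a description, with no test. The choice set no fixed fold, so there is no threshold with genes just inside and just outside it. All 8 symbols were found in the tables, with the identifiers ENSMMUG00000007154, ENSMMUG00000002607, ENSMMUG00000000368, ENSMMUG00000023570, ENSMMUG00000013960, ENSMMUG00000000342, ENSMMUG00000015731 and ENSMMUG00000019054 in the order of the names above.

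Frozen claustrum tissue came from 2 untreated healthy male animals, aged 17 and 18 months, and nuclear RNA was counted with a droplet method that reads 3' ends (10x Genomics, V3). The younger animal has 2 libraries here and the older 3, so each age is 1 animal and its libraries are repeats of that animal. No strain, genotype or diet of the animals is given in the sources used here. The libraries held 47512670 to 70896967 unique molecular identifiers (UMIs, counted RNA molecules) in 6659 to 9540 barcodes. After filtering, 37091 nuclei remained, of which 5088 were claustrum-like excitatory and 3630 other excitatory. Pairs of libraries shared 11 to 39 barcodes, and 2 barcodes of claustrum-like nuclei occurred in more than 1 library. Levels are counts per 1000000 UMIs (CPM) of all nuclei of a class summed within a library. Per-library values are always given in the order 17-month libraries 1 and 2, then 18-month libraries 1, 2 and 3, and means carry the SD over libraries.

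The claustrum is a thin sheet of grey matter beside the insula whose excitatory neurons exchange projections with much of the cortex. Its neurons are usually recognised by genes such as NR4A2, GNB4 and SYNPR. The 8 genes here belong to unrelated families. RGS12 speeds the shut-off of G protein signals, SNTB1 (beta-1-syntrophin) is an adaptor of the dystrophin complex under the membrane, and TSPAN18 is a tetraspanin, a multi-pass membrane protein that organises partner proteins. IL19 is a secreted cytokine of the interleukin 10 family. SLC24A4 exchanges sodium for calcium and potassium, and TRPC7 is a cation channel opened by lipid messengers downstream of phospholipase C. JHY is needed for motile cilia of the ventricle lining, and LIPG (endothelial lipase) is a secreted phospholipase that acts on lipoproteins.

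The nuclei called claustrum-like carried the defining genes in all 5 libraries. NR4A2 stood at 213 to 285 CPM there against 33.4 to 43.8 CPM in other excitatory nuclei, NTNG2 at 656 to 795 against 99.6 to 142 CPM, and SMYD1 at 53.8 to 79.5 against 2.59 to 7.18 CPM. These genes named the nuclei and are no result. The claustrum-like nuclei fell into 5 clusters. Cluster 1 (1660 nuclei) was led by SLC17A8 and CCDC141, cluster 2 (1479) by VWC2, POSTN and FSHR, cluster 3 (1413) by GRIK1, cluster 4 (354) by GNA14 and DRD2, and cluster 5 (182) by activity-regulated genes such as FOSB, NPAS4 and FOS. Scaled to 1 for the highest cluster, the claustrum marker score was 0.388 in cluster 4, where a name needed 0.35. It was 0.660 to 1 in the other claustrum-like clusters. The other excitatory nuclei held 2258 nuclei of a deep THEMIS type in 2 clusters, 1065 nuclei of 4 layer types, and 307 unnamed nuclei. Of the unnamed nuclei, 99 formed a cluster whose best score was for claustrum, at 0.603 on the same scale, above cluster 4. This cluster had the astrocyte gene AQP4 among its leading genes and was not named. The other excitatory nuclei are therefore not free of claustrum-scoring nuclei. The 8 genes were kept out of the genes used for clustering and naming, but the clusters rest on other genes of the same nuclei.

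Among the named excitatory clusters the 8 genes split into 3 patterns. SNTB1, TSPAN18 and IL19 were nearly restricted to claustrum-like nuclei, and RGS12 and SLC24A4 were high there and lower in the THEMIS type. TRPC7, JHY and LIPG were shared with the THEMIS type to a larger extent. The unnamed excitatory nuclei are outside this split, since they also carried SNTB1, TSPAN18 and IL19. The ratio of mean CPM in claustrum-like to all other excitatory nuclei ran from 1.71 for TRPC7 to 18.6 for IL19. All 8 genes were higher in claustrum-like nuclei in 5 of 5 libraries, which the choice of the genes fixes. By the fitted log2 difference over 10335 genes, IL19 ranked 2, SNTB1 5 and TSPAN18 7, while TRPC7, at 0.73, ranked 485.

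Summed IL19 in claustrum-like nuclei was 25.5, 34.8, 40.2, 37.6 and 34.6 CPM, and in other excitatory nuclei 1.16, 2.20, 0.726, 1.81 and 3.40 CPM. The groups lay far apart in every library. Of the 108 IL19 counts in other excitatory nuclei, 72 were in the 307 unnamed ones, where the mean was 14.7 ± 5.26 CPM. In the 3323 named nuclei the mean was 0.685 ± 0.349 CPM (n = 5), a ratio of 50.4.

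SNTB1 measured 266, 185, 221, 226 and 213 CPM in claustrum-like nuclei against 9.39, 16.3, 14.4, 17.5 and 17.1 CPM in the other excitatory nuclei. TSPAN18 measured 169, 186, 251, 270.0 and 216 CPM against 13.3, 18.5, 10.2, 19.1 and 21.3 CPM. Neither gene's groups overlapped. In the THEMIS type the means were 7.79 ± 2.15 CPM for SNTB1 and 9.48 ± 2.16 CPM for TSPAN18, and in the layer types 5.92 ± 3.24 and 9.77 ± 3.25 CPM. For both genes the THEMIS type and the layer types overlapped at a low level. In the 307 unnamed excitatory nuclei the means were higher, at 99.9 ± 12.3 CPM for SNTB1 and 97.8 ± 39.2 CPM for TSPAN18. These nuclei held 473 of the 894 SNTB1 counts and 465 of the 978 TSPAN18 counts in other excitatory nuclei.

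RGS12 measured 930.2, 982, 1278, 1234 and 1075 CPM in claustrum-like nuclei and 245, 259, 337, 262 and 294 CPM in other excitatory nuclei. The 2 libraries of the 17-month animal were the lowest in both groups. The other excitatory level came mostly from the THEMIS type (314 ± 42.2 CPM), while the layer types had 65.9 ± 12.2 CPM. SLC24A4 measured 256, 263, 199, 188 and 102 CPM against 27.2, 49.6, 26.7, 27.3 and 17.5 CPM. 18-month library 3 was the lowest of both groups, and the groups did not overlap.

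TRPC7 measured 30.7, 22.3, 23.6, 46.5 and 66.0 CPM in claustrum-like nuclei and 21.3, 10.1, 21.1, 25.3 and 32.6 CPM in other excitatory nuclei, and here the groups overlapped. Against the THEMIS type alone (27.8 ± 10.6 CPM) it was higher in 4 of 5 libraries, a ratio of 1.36; against the layer types (3.35 ± 1.29 CPM) the ratio was 11.3. JHY measured 18.2, 14.3, 23.2, 22.7 and 26.2 CPM against 5.27, 3.93, 7.91, 5.37 and 10.9 CPM, without overlap. Its highest mean of 23 cell types, 40.9 CPM, was in the unnamed cluster of 99 nuclei that scored best for claustrum. That mean rests on 52.8 CPM in 17-month library 1 and 29.1 CPM in 18-month library 2. LIPG measured 28.6, 33.5, 17.0, 16.7 and 13.5 CPM against 13.7, 17.8, 3.47, 3.02 and 2.46 CPM, where the 17-month libraries were high in both groups and the groups overlapped. Its THEMIS-type mean was 9.70 ± 9.09 CPM and its layer-type mean 1.22 ± 1.37 CPM.

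**Figure D1:**
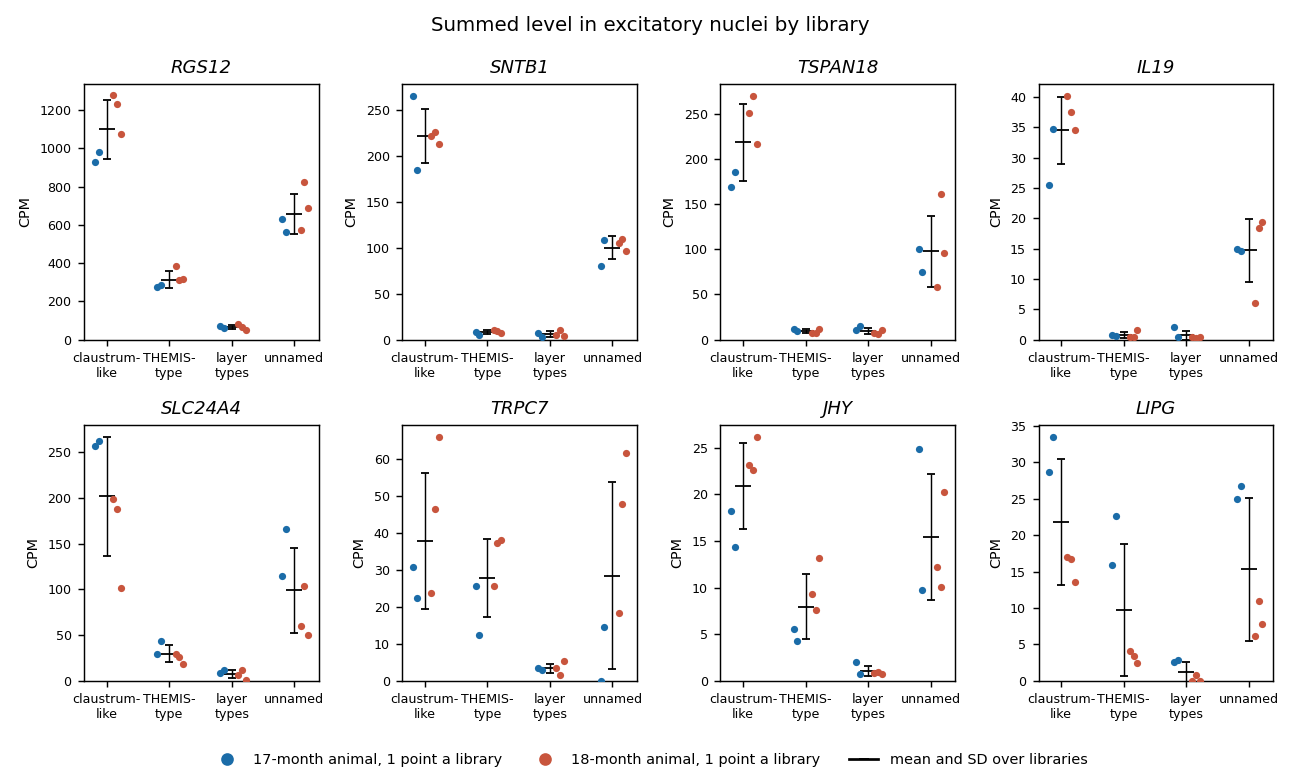
Summed level (CPM, linear axes from 0) of each gene in claustrum-like, THEMIS-type, layer-type and unnamed excitatory nuclei, 1 point a library, coloured by animal, with mean and SD over the 5 libraries. SNTB1, TSPAN18 and IL19 are near 0 in the THEMIS and layer types, while TRPC7 in the THEMIS type (27.8 CPM) lies within the spread of the claustrum-like libraries.

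Differences among the other excitatory clusters were not used directly to choose the genes. The choice still bears on them, since any claustrum-like RNA in such a cluster would raise the genes there. Whether the clusters hold such RNA was not tested, so the count below is a description. All 8 passed edgeR's quasi-likelihood F-test at an adjusted p under 0.05 with at least a 2-fold range, where 20.7% of 8200 genes did. In that fit 7 of the 8 were highest in the 162-nucleus unnamed cluster, led by SHROOM4, ST18 and MBP and so carrying oligodendrocyte genes. Its scaled claustrum marker score was 0.411, where the highest claustrum-like cluster is 1 and the lowest, cluster 4, is 0.388. With the named clusters alone, IL19 fell under the low-count filter, 5 of the 7 tested genes passed, and 18.4% of 8130 genes did. In that fit SNTB1 (adjusted p = 0.149) and TSPAN18 (adjusted p = 0.158) did not pass, with a range of 1.61 log2 units for SNTB1.

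Among the named clusters RGS12, TRPC7, JHY and LIPG were highest in the smaller THEMIS-type cluster (779 nuclei, led by SH3RF2, ERG and MLXIPL). RGS12 was 484 ± 63.0 CPM there, 211 ± 30.8 CPM in the larger THEMIS-type cluster (1479 nuclei), 77.3 ± 21.0 CPM in layer 6 corticothalamic and 45.1 ± 5.09 CPM in layer 6b nuclei, a range of 3.38 log2 units (edgeR, adjusted p = 6.28e-18). The 2 THEMIS-type clusters did not overlap each other or any layer type, while the layer types overlapped among themselves, layer 4/5 intratelencephalic nuclei (76.1 ± 18.3 CPM, n = 3) included. TRPC7 was 43.0, 19.1, 38.9, 66.8 and 52.1 CPM in the smaller THEMIS-type cluster and 15.4, 7.99, 15.9, 21.8 and 30.9 CPM in the larger. It was higher in the smaller cluster in each library, and near 0 in corticothalamic nuclei (1.65 ± 0.903 CPM). SLC24A4 had another order, with 43.2 ± 8.40 CPM (n = 3) in layer 4/5 intratelencephalic nuclei, 37.5 ± 17.4 CPM in the smaller THEMIS-type cluster and 1.30 ± 1.21 CPM in layer 6b; the first 2 of these overlapped.

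The claustrum-like clusters differed most in SNTB1 and least in RGS12. At an adjusted p under 0.05 and at least a 2-fold range, 6 of the 8 genes passed, where 10.6% of 9059 genes did (edgeR quasi-likelihood F-test over clusters, library as block). RGS12 and SLC24A4 had adjusted p under 0.05 but ranges of 0.19 and 0.64 log2 units. Of the 8 genes, these 2 therefore varied least between the 5 clusters.

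SNTB1 in cluster 3 was 547, 483, 581, 538 and 494 CPM, and in cluster 4 it was 9.88, 5.16, 7.71, 13.2 and 8.70 CPM. Cluster 4 was thus at the level of the cortical types named above, and the range was 5.82 log2 units (adjusted p = 2.16e-13). Cluster 4 also had the lowest claustrum marker score of the 5 claustrum-like clusters. Cluster 5 had 353 ± 60.1 CPM, cluster 2 had 204 ± 50.6 CPM and cluster 1 had 47.8 ± 15.5 CPM. The order 3, 5, 2, 1, 4 had no overlap between libraries of neighbouring clusters.

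IL19 was 63.4 ± 18.0 CPM in cluster 5, 51.2 ± 16.9 CPM in cluster 3, 34.4 ± 10.1 CPM in cluster 1, 24.9 ± 6.46 CPM in cluster 2 and 8.79 ± 4.001 CPM in cluster 4 (range 3.001 log2 units, adjusted p = 0.000112). Cluster 4 did not overlap any of the others, while neighbours among the other 4 overlapped. TSPAN18 had the same lowest cluster (91.4 ± 13.5 CPM in cluster 4) but was highest in clusters 5 (302 ± 64.1 CPM) and 1 (293 ± 64.5 CPM), which overlapped (range 1.75, adjusted p = 1.04e-06). Even its lowest cluster was above every named cortical cluster.

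LIPG had another lowest cluster. It was 8.62, 11.99, 3.95, 5.37 and 8.03 CPM in cluster 3, and 41.4, 39.9, 26.0, 20.02 and 11.97 CPM in cluster 2, and cluster 3 was lower in each library. Clusters 1 and 4 were at 26.3 ± 10.9 and 22.6 ± 10.0 CPM and cluster 5 at 31.1 ± 17.5 CPM (range 2.10 log2 units, adjusted p = 6.34e-11). The cluster with the most SNTB1 was therefore the one with the least LIPG.

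TRPC7 was 13.3 ± 9.0004 CPM in cluster 4, 25.7 ± 12.6 CPM in cluster 1, and 45.8 ± 17.8, 51.0 ± 30.4 and 56.0 ± 33.0 CPM in clusters 2, 3 and 5 (range 1.99 log2 units, adjusted p = 2.11e-15). In clusters 1 to 5 alike, 18-month library 3 was the highest and 17-month library 2 or 18-month library 1 the lowest. JHY was 38.4 ± 9.98 CPM in cluster 5, 30.4 ± 7.14 CPM in cluster 3 and 15.99 ± 3.76 to 18.2 ± 6.88 CPM in clusters 2, 1 and 4 (range 1.20 log2 units, adjusted p = 4.76e-10). Without the small activity-regulated cluster 5 its range was 0.85 log2 units and it no longer passed the 2-fold limit, while the other 5 genes did, where 8.41% of 9171 genes did.

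**Figure D2:**
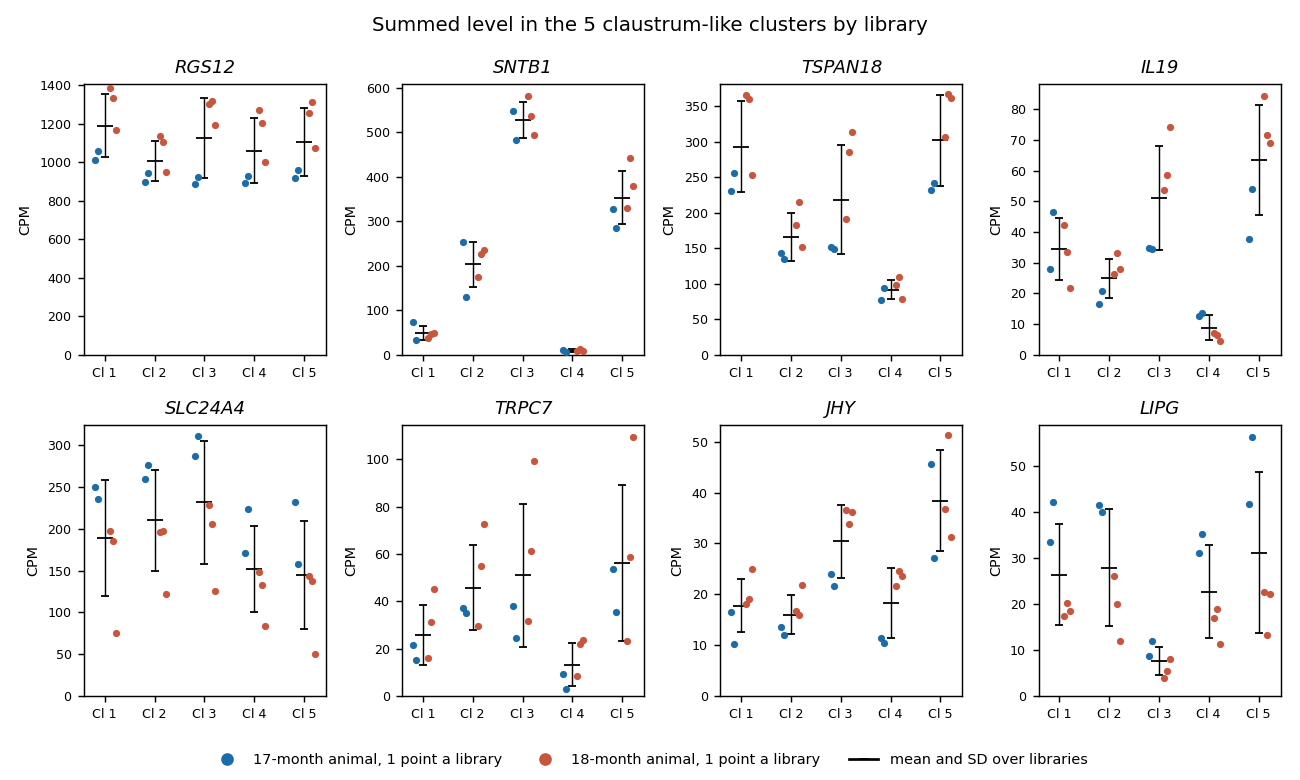
Summed level (CPM, linear axes from 0) of each gene in claustrum-like clusters 1 to 5 (Cl 1 to Cl 5), 1 point a library, coloured by animal, with mean and SD over the 5 libraries. SNTB1 runs from 8.93 CPM in cluster 4 to 528 CPM in cluster 3, LIPG is lowest in cluster 3 (7.59 CPM), and RGS12 is nearly level.

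Outside excitatory neurons, RGS12 was carried by CGE-type inhibitory neurons, TRPC7 by CGE-type and MGE-type inhibitory neurons, and SNTB1, SLC24A4 and JHY by astrocytes. These levels played no part in the choice of the genes. Each of 9 classes was tested against the mean of the other 8 (edgeR, adjusted p under 0.05 and at least 2-fold, 9274 genes, 7 of the 8 genes; IL19 was below the low-count filter). The 7 genes gave 19 calls in all. In CGE-type inhibitory neurons 4 of the 7 were higher, against 10.8% of all genes, and in astrocytes 4 of the 7, against 12.1%. In MGE-type inhibitory neurons 1 was higher, against 11.6%, and 3 lower, against 6.77%. In striatal projection neurons 1 was higher, against 14.9%, and 3 lower, against 11.9%.

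CGE-type inhibitory neurons are the group that arises in the caudal ganglionic eminence, with VIP cells among them. The inhibitory cluster with LAMP5 among its leading genes (319 nuclei) stayed unnamed, so it is not in this class here. RGS12 in CGE-type neurons was 727, 740.1, 767, 772 and 849 CPM, which was 68.5% of the pooled claustrum-like level. In MGE-type neurons (from the medial eminence, with SST and PVALB cells) it was 69.9, 76.3, 64.7, 73.1 and 58.5 CPM, the 2 classes lying far apart in each library. The fitted log2 difference was 2.64 for the first (adjusted p = 5.43e-31) and -1.34 for the second (adjusted p = 2.49e-14). RGS12 was also lower in committed oligodendrocyte precursors (log2 difference -1.45, adjusted p = 2.45e-06; 6.63% of genes were lower there). Within the CGE type, the 5 clusters with 5 usable libraries ran from 436 ± 23.4 CPM in a cluster led by NMBR and EYA4 to 969 ± 146 CPM in one led by PDLIM5 and SGCD.

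TRPC7 in CGE-type neurons was 52.9, 57.4, 71.9, 62.0 and 74.3 CPM, above the claustrum-like value of the same library in 5 of 5, although the groups overlapped through 18-month library 3. MGE-type neurons had 40.4, 39.3, 40.7, 35.3 and 36.7 CPM. The log2 differences were 4.05 (adjusted p = 2.00e-21) and 3.20 (adjusted p = 2.98e-16). A further 137 unnamed nuclei led by ECEL1, LHX8, SLC5A7 and CHAT had the highest TRPC7 of any cluster of at least 50 nuclei, 349, 405 and 330.2 CPM in the 3 libraries with at least 20 of these nuclei. SLC5A7 and CHAT are the choline transporter and the enzyme that makes acetylcholine. The same nuclei had 301 ± 44.9 CPM of SNTB1 and 30.8 ± 9.81 CPM of LIPG (n = 3).

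SNTB1 was higher in astrocytes than in claustrum-like neurons as a whole, at 284, 316, 293, 368 and 376 CPM, and did not overlap them (log2 difference to the other non-excitatory classes 4.51, adjusted p = 6.02e-23). Only claustrum-like clusters 3 and 5 reached that level. In mural or fibroblast nuclei, which had 20 or more nuclei in 1 library only and were not tested, it was 614.1 CPM in that library. SLC24A4 in astrocytes was 91.9, 105, 49.4, 53.7 and 67.8 CPM (log2 difference 2.22, adjusted p = 2.71e-11), and in striatal projection neurons 33.0 ± 8.21 CPM (1.45, adjusted p = 4.90e-09). JHY in astrocytes was 16.1, 23.3, 38.3, 14.7 and 31.6 CPM (2.33, adjusted p = 1.65e-11) and overlapped the claustrum-like libraries. Ependymal cells, in which JHY is best known, were not among the named classes.

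The other calls were small or at low counts. TSPAN18 was higher in CGE-type neurons (14.3 ± 4.16 CPM) and lower in MGE-type (2.33 ± 1.06 CPM) and striatal projection neurons (2.14 ± 1.04 CPM), all far below the claustrum-like level and, in CGE-type neurons, close to the 11.7 ± 2.74 CPM of oligodendrocytes. JHY was higher in CGE-type neurons (10.1 ± 4.37 CPM) and LIPG in astrocytes (8.49 ± 4.74 CPM). LIPG and SNTB1 were lower in striatal projection neurons (0.567 ± 0.509 and 8.18 ± 1.84 CPM), SLC24A4 in MGE-type neurons (7.29 ± 3.75 CPM), JHY in oligodendrocytes (2.63 ± 0.564 CPM; 7.57% of genes were lower there) and TRPC7 in oligodendrocyte precursors (1.85 ± 2.13 CPM; 3.55%). In microglia and endothelial nuclei 0 of 7 passed with edgeR, against 23.5% and 26.6% of all genes, with 2 and 0 at an unadjusted p under 0.05 and 0 with DESeq2. Several of the small calls hung on 1 library: JHY in oligodendrocytes did not pass without 18-month library 3 (log2 difference -0.35), LIPG in astrocytes without 18-month library 2 (1.33), LIPG and SNTB1 in striatal projection neurons without 17-month library 2 (-1.69 and -1.14), and TRPC7 in oligodendrocyte precursors without 17-month library 1 (-1.41) or 18-month library 2 (-1.36). JHY in CGE-type neurons fell under the 2-fold limit without 18-month library 1 (0.96) or 2 (0.94).

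**Figure D3:**
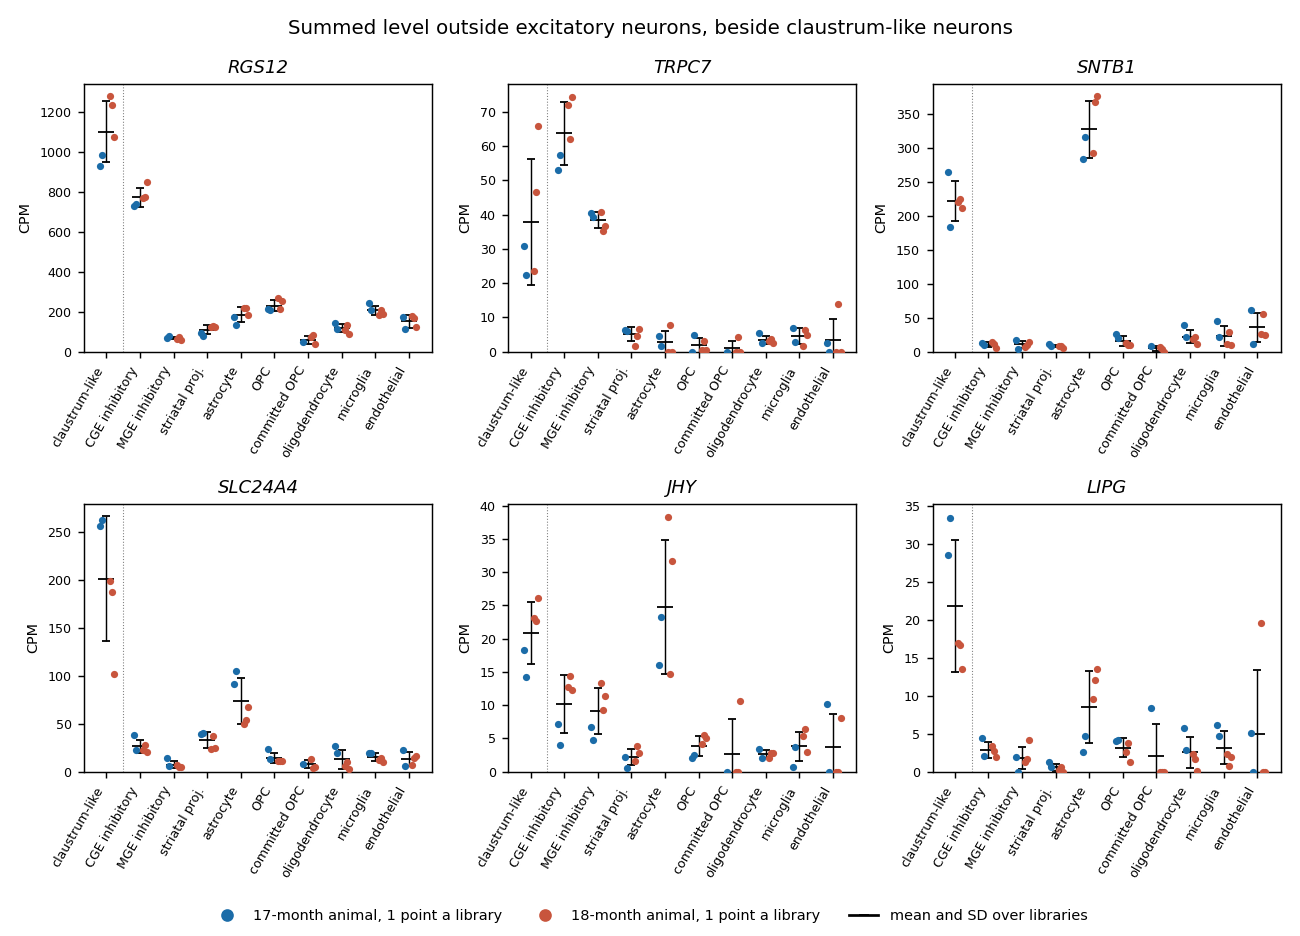
Summed level (CPM, linear axes from 0) of 6 of the genes in claustrum-like neurons, left of the dotted line, and in 9 non-excitatory classes, 1 point a library, coloured by animal, with mean and SD over libraries. RGS12 is high in CGE inhibitory neurons (771 CPM), TRPC7 in both inhibitory classes (63.7 and 38.5 CPM), and SNTB1 in astrocytes (328 CPM).

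**Figure D4:**
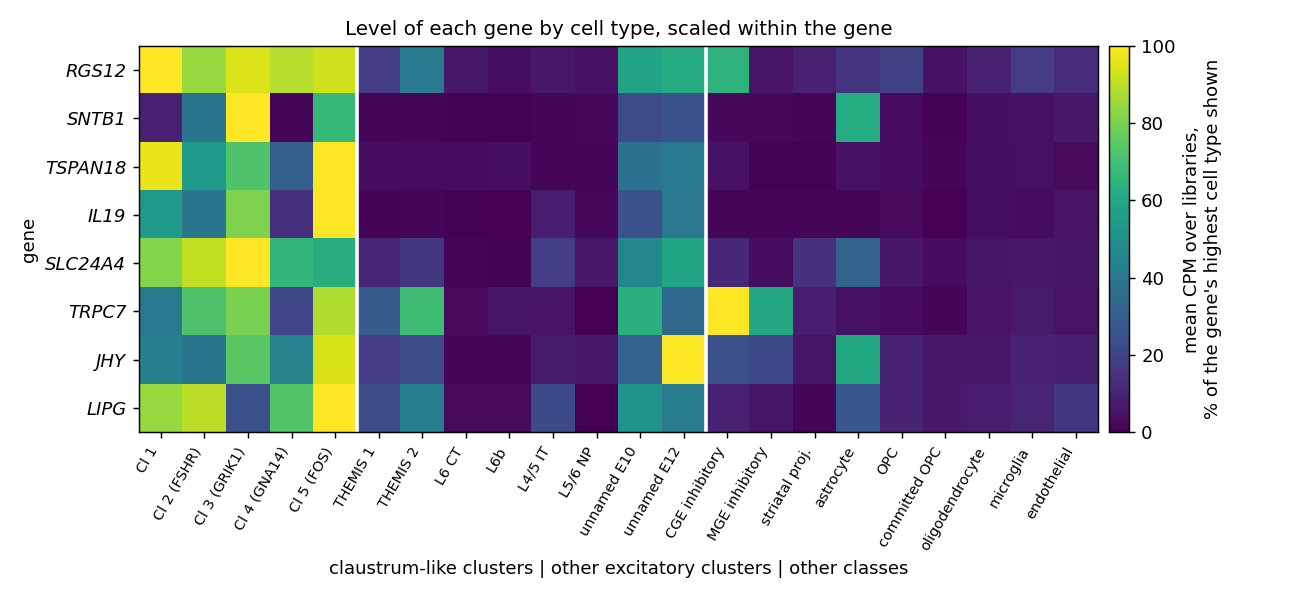
Mean CPM over libraries of each gene in 22 cell types, as a percent of the highest of the types shown for that gene, so that rows cannot be compared in level. Claustrum-like clusters stand left, other excitatory clusters in the middle and other classes right; IL19 and TSPAN18 are low in all classes right of the second line.

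Detection in single nuclei was compared at 2000 UMIs drawn from each nucleus, since claustrum-like nuclei had a median of 16394 UMIs and oligodendrocytes 2417. RGS12 was seen in 88.2% of 5086 claustrum-like nuclei (99.9% before thinning), SLC24A4 in 34.0%, TSPAN18 in 33.5% and SNTB1 in 28.9%. TRPC7 was seen in 6.88%, IL19 in 6.11%, JHY in 4.70% and LIPG in 4.21%. Free RNA reaches all droplets, and oligodendrocytes, thinned alike (10319 nuclei), gave 19.8% for RGS12, 3.91% for SNTB1, 2.48% for SLC24A4, 2.05% for TSPAN18, 0.640% for TRPC7, 0.485% for JHY, 0.436% for LIPG and 0.368% for IL19. In summed counts, oligodendrocytes held 5.15% of the claustrum-like level of TSPAN18, 6.26% of IL19 and 10.4% of RGS12, beside 8.94% for the claustrum marker NTNG2, 25.3% for the cortical gene TBR1 and 57.1% for SLC17A7. Levels of the 8 genes in glia near those shares are at the level at which excitatory genes appear there; the part of free RNA in them was not tested.

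A claustrum-like nucleus held on average 2.07 ± 0.10 of the 8 genes (SD over libraries) at 2000 UMIs, and 69.0% of these nuclei held at least 2. Other excitatory nuclei held 0.505 ± 0.046, CGE-type neurons 0.950 ± 0.034 and astrocytes 0.940 ± 0.045. That claustrum-like nuclei held more than other excitatory nuclei is fixed by the choice of the genes. RGS12, the gene most often detected, adds more to the claustrum-like mean than any other of the 8. Before thinning, the claustrum-like mean was 4.51.

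Of the 28 pairs of genes, 6 had an odds ratio of co-detection above 1 in all 5 libraries among claustrum-like nuclei, and 3 still did within clusters. SNTB1 and IL19 had an odds ratio of 1.601 ± 0.261 in all claustrum-like nuclei and 1.46 ± 0.203 within clusters, from 118 nuclei with both. TSPAN18 and LIPG gave 1.61 ± 0.565 and 1.62 ± 0.718 within clusters (87 nuclei with both), and SNTB1 and TRPC7 1.45 ± 0.238 and 1.08 ± 0.0902 within clusters (128 nuclei). SNTB1 and LIPG gave 0.732 ± 0.450, with 1 library above 1, and 1.24 ± 0.981 within clusters, with 2 above 1. With 28 pairs and sparse counts these ratios are a description, and 0 of the 28 were below 1 in all 5 libraries.

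Between the 2 animals, LIPG was lower and RGS12, TSPAN18 and JHY higher in claustrum-like neurons of the 18-month animal. These 4 of 8 genes passed edgeR's quasi-likelihood test at an adjusted p under 0.05, where 12.8% of 10847 genes did (6.36% higher and 6.48% lower). With 1 animal of each age, age, individual and dissection cannot be told apart, and the p-values measure only the spread between libraries. In the older animal RGS12 was also higher, without overlap, in astrocytes and in other excitatory, CGE-type and striatal projection neurons (striatal means 85.3 and 125 CPM). JHY was so in other excitatory and CGE-type neurons (5.58 and 13.2 CPM in the latter). Neither passed edgeR in other excitatory neurons (adjusted p = 0.0894 and 0.127) or astrocytes. Both means were lower in the older animal's oligodendrocytes, with overlap, and TSPAN18 was lower in its CGE-type neurons, without overlap.

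LIPG, with the claustrum-like values given above, was 31.0 ± 3.43 CPM in the 17-month libraries (n = 2) and 15.7 ± 1.92 CPM in the 18-month libraries (n = 3), without overlap (log2 difference -0.92 ± 0.12 SE, edgeR adjusted p = 0.00209). It passed with each library left out in turn. In other excitatory neurons the same gene was 15.7 ± 2.93 against 2.98 ± 0.508 CPM (log2 difference -2.36 ± 0.19 SE, edgeR adjusted p = 0.000174; 9.86% of 10268 genes passed there). Oligodendrocytes, too, had less LIPG in the older animal (4.30 ± 2.08 against 1.38 ± 1.12 CPM, without overlap). In astrocytes LIPG was 2.57 and 4.65 CPM in the younger animal and 9.57, 12.1 and 13.6 CPM in the older one, from 36 counts in all, so the order was the opposite. The difference between astrocytes and claustrum-like neurons in this animal contrast was 2.76 ± 0.55 log2 units (edgeR interaction, adjusted p = 0.00281; 2.43% of 9751 genes passed, and of the 8 genes only LIPG). It was 2.40 log2 units with adjusted p = 0.197 without 17-month library 1.

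JHY was 16.3 ± 2.77 CPM in the 17-month (n = 2) and 24.0 ± 1.90 CPM in the 18-month libraries (n = 3; log2 difference 0.61 ± 0.12 SE, edgeR adjusted p = 0.0118). RGS12 was 956 ± 36.5 and 1196 ± 107 CPM (0.38 ± 0.086 SE, edgeR adjusted p = 0.0201) and TSPAN18 177 ± 12.1 and 246 ± 27.4 CPM (0.53 ± 0.11 SE, edgeR adjusted p = 0.0174), and neither gene's animals overlapped. JHY did not pass without 17-month library 2 (edgeR adjusted p = 0.126). RGS12 and TSPAN18 did not pass without 17-month library 1 (edgeR adjusted p = 0.209 and 0.169), 17-month library 2 (0.107 and 0.0804) or 18-month library 1 (0.0568 and 0.0519).

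The other 4 genes did not pass. SLC24A4 was lower in each 18-month library than in both 17-month libraries, but 18-month library 3 (102 CPM) lay far below the others, and the log2 difference was -0.61 ± 0.35 SE (edgeR adjusted p = 0.349). Without that library it was -0.36 with an adjusted p of 0.00927. In astrocytes SLC24A4 passed, at 98.7 ± 9.52 against 57.0 ± 9.59 CPM (log2 difference -0.75 ± 0.19 SE, edgeR adjusted p = 0.0137; 5.3% of 6541 genes passed). TRPC7 ran from 23.6 to 66.0 CPM within the older animal, with means of 26.5 ± 5.96 and 45.4 ± 21.2 CPM, and passed without 18-month library 1 (log2 difference 1.16, edgeR adjusted p = 0.039). IL19 was 30.2 ± 6.56 and 37.5 ± 2.81 CPM and passed without 17-month library 2 (0.63, edgeR adjusted p = 0.0423). SNTB1 was 225 ± 57.2 and 219.9 ± 6.72 CPM.

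Within single clusters the animal test passed 2 of the 8 genes in cluster 1 (RGS12 and LIPG; 8.18% of all genes), 1 in cluster 2 (IL19; 5.81%) and 3 in cluster 3 (RGS12, JHY and IL19; 9.04%). In a test of animal by cluster over these 3 clusters, 0 of the 8 genes passed at an adjusted p under 0.05 (edgeR), where 1.32% of 9163 genes did; at an unadjusted p under 0.05, 1 of the 8 did, which was RGS12 (adjusted p = 0.232). DESeq2 was not run on this test.

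**Figure D5:**
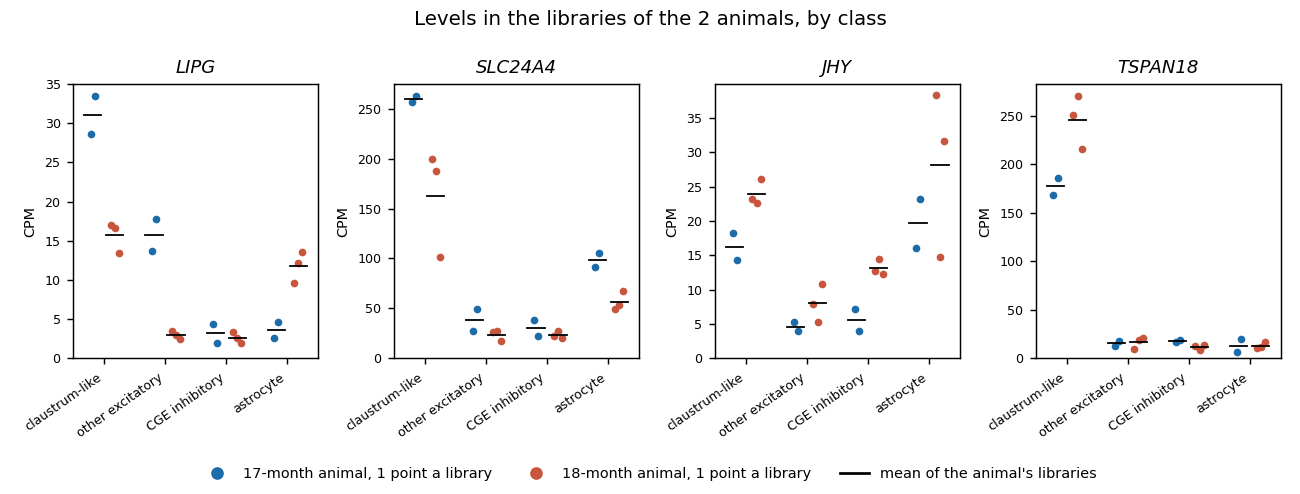
Summed level (CPM, linear axes from 0) of LIPG, SLC24A4, JHY and TSPAN18 in 4 classes, 1 point a library, with the 17-month libraries left and the 18-month libraries right of each class and a bar at each animal's mean. LIPG is lower in the 18-month animal in claustrum-like neurons (31.0 and 15.7 CPM) and higher in its astrocytes (3.61 and 11.8 CPM).

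Relatives of the 8 genes were found on both sides. Of 128 listed, 93 were tested between claustrum-like and other excitatory nuclei (all 5 libraries, edgeR, library as block), 8 were higher and 10 lower at an adjusted p under 0.05 and at least 2-fold, and their median log2 difference was -0.01. Over all 10335 genes, 2.73% were higher, 3.98% were lower and the median was -0.003. The lists were drawn up with earlier results of these data known, and each listed call below had 5 of 5 libraries in its direction unless stated.

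Among 16 RGS proteins (median log2 difference -0.02), which share RGS12's brake on G protein signals, 2 rose and 3 fell. RGS6 and RGS7, the G-beta-5 binding RGS proteins of neurons, were low in claustrum-like nuclei: 37.2 ± 9.74 against 645 ± 46.5 CPM for RGS6 (log2 difference -4.15 ± 0.23 SE, edgeR adjusted p = 0.000219) and 39.5 ± 5.46 against 616 ± 71.3 CPM for RGS7 (-3.97 ± 0.12 SE, adjusted p = 2.52e-06). RGS4 fell by 2.16 log2 units, while RGS8 and RGS2 rose by 1.04 log2 units each, just over the 2-fold limit and under it without 18-month library 1 or 2 (0.91 to 0.95).

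Of 12 members of the dystrophin complex (median -0.24), 2 rose and 1 fell. UTRN (utrophin, the relative of dystrophin) was 745 ± 40.6 against 297 ± 52.5 CPM (log2 difference 1.33 ± 0.059 SE, edgeR adjusted p = 8.16e-08), and SGCZ (zeta-sarcoglycan) rose by 1.28. SNTG1, the gamma-1 relative of SNTB1, went the other way, with 26.9 ± 6.92 against 149.5 ± 20.5 CPM (-2.50 ± 0.21 SE, adjusted p = 0.000784). Of 25 tetraspanins (median -0.20), 0 rose and 3 fell, led by TSPAN2 at 0.177 ± 0.125 against 6.60 ± 3.37 CPM (-5.20 log2 units, adjusted p = 1.43e-08), then TSPAN12 (-1.08) and TSPAN11 (-1.17, lower in 4 of 5 libraries and named only to complete the count).

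Of 4 tested interleukin 10 family genes (median 0.59), 2 rose: IL10 was 3.43 ± 0.523 against 0.194 ± 0.128 CPM (log2 difference 4.14 ± 0.28 SE, edgeR adjusted p = 1.07e-07), and IL20RA, a chain of the receptor that binds IL19, was 1.74 ± 0.315 against 0.840 ± 0.214 CPM (1.03, adjusted p = 0.00446). IL10 overlaps IL19 in the gene order given below, so its call may not be independent of IL19, which was chosen on this contrast. IL20RA was under the 2-fold limit without 17-month library 1 (0.95), 18-month library 2 (0.99) or 18-month library 3 (0.85). Of 8 sodium calcium exchangers (median 0.00) 0 rose and 0 fell with edgeR at the 2-fold limit, though 5 had an unadjusted p under 0.05; SLC24A2 had a log2 difference of 0.36 and SLC8A2 of -0.87. Of 4 TRPC channels (median 0.38), TRPC4 rose from 51.4 ± 6.68 to 189.7 ± 13.3 CPM (1.88 ± 0.046 SE, adjusted p = 1.12e-11). Of 8 lipases and their regulators (median -0.26), LPL and PNLIPRP3 fell by 1.17 and 1.05 log2 units at levels under 3 CPM, and neither passed without 18-month library 1 (-0.86 and -0.74), LPL also not without 17-month library 2 (-0.95) and PNLIPRP3 not without 17-month library 1 (-0.98). Of 16 motile cilium genes (median 0.27), SPAG17 alone passed, rising by 1.24 log2 units from 2.29 ± 0.796 to 5.49 ± 1.36 CPM.

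IL19 and TRPC7 lie beside genes that passed as higher in claustrum-like nuclei, where 2.73% of 10335 genes did. The other tested neighbours did not pass. In the RefSeq annotation of assembly T2T-MMU8v2.0, used for gene order only because the tables were counted on another build, IL19 overlaps IL10, and IL20 follows. IL10 was detected in 294 claustrum-like nuclei and IL19 in 1726, with both in 172; reads of overlapping genes may not be told apart, and the gene models used for the counts were not examined. TSPAN18 overlaps TP53I11 (log2 difference 0.83) and neighbours CD82 (0.80), which did not pass the 2-fold limit. CPSF2 beside SLC24A4 (log2 difference -0.37) and ACAA2 beside LIPG (0.35) did not pass it either. Among untested neighbours, MSANTD1 beside RGS12 was 30.9 ± 5.26 against 25.6 ± 3.15 CPM. RIN3 beside SLC24A4 was 3.85 ± 1.19 against 3.61 ± 0.438 CPM, and CRTAM beside JHY 2.31 ± 0.787 against 1.23 ± 0.495 CPM. TRPC7 lies between SMIM32, a claustrum marker used for naming (15.3 ± 3.75 against 4.56 ± 1.47 CPM), and SPOCK1, a secreted proteoglycan gene at 1437 ± 178 against 578 ± 66.8 CPM (log2 difference 1.30 ± 0.043 SE, edgeR adjusted p = 1.92e-10).

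The genes most like each of the 8 were found over 23 cell types (excitatory clusters and other classes of at least 50 nuclei) by the Pearson correlation of log2(CPM + 1) among 10947 genes. The 23 types share libraries and depth, so these values are a description. The 8 genes were chosen for high counts in claustrum-like nuclei, and NR4A2 helped to name those clusters. High values among the 8 genes, or with NR4A2, therefore follow in part from these choices. TSPAN18 was most like NR4A2 (r = 0.92), IL19 (0.91) and OLFML2B (0.91), and IL19 most like TSPAN18, MCOLN3 (0.91) and MGAT5 (0.90). RGS12 was most like STK32B (0.93), ST8SIA2 (0.90) and GALNT2 (0.87). JHY was also most like STK32B (0.81), followed by PDK2 (0.80) and RGS12 (0.79). SNTB1 was most like CYSTM1 (0.76), IL19 and RABGAP1 (both 0.75). SLC24A4 was most like WDR86, MLLT10 and MGAT5 (all 0.85). LIPG was most like ADAMTS12 (0.87), one of the leading genes of claustrum cluster 2, then BDKRB2 (0.85) and SLC20A1 (0.83). TRPC7 was most like ENSMMUG00000055901 (0.86), KCNC1 (0.85) and EPHA10 (0.84). Among the 8 genes themselves, r ran from 0.20 for SNTB1 and TRPC7 to 0.91 for TSPAN18 and IL19.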

How the data were processed

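Nuclear RNA of frozen claustrum was counted in 5 libraries of 2 macaques. The authors deposited unnormalised UMI counts for every gene in each barcode; per the file headers the software was Cell Ranger 5.0.1, the submitters' processing notes also name CASAVA 1.8, Seurat and the builds Mmul_10 and mm10, and their filters are not given in the sources used here. The 8 genes and the family and marker lists were chosen with earlier results of these data known. Of 40005 barcodes, 359 with under 500 genes and 2555 likely doublets were removed (simulated doublets, 0.8% per 1000 nuclei). Nuclei were clustered on 2000 variable genes and 30 principal components, leaving out every listed gene. The variable genes were picked with scanpy 1.11.5 from a random subset of the other genes. Libraries were aligned with a Harmony-style correction, and clusters were found by the Leiden method (igraph 0.11.9). Clusters were named from the marker lists, with limits set after the clusters were seen. Counts were summed per library and class or cluster (at least 20 nuclei) and tested with edgeR 4.0.16 (quasi-likelihood, TMM, filterByExpr, library as block except between animals), over genes not used for clustering or naming, with Benjamini-Hochberg adjustment. The scripts were tested on simulated data. Calls needed an adjusted p under 0.05 and, except between animals, at least a 2-fold difference or range. Named were all 8 genes, per family list up to 3 calls in each direction with the same direction in each library, and the 3 most similar genes. Alternatives were DESeq2 1.42.0 as a test and for size factors, no low-count filter, at least 1000 genes per nucleus, a doublet rate of 1.6%, named or unnamed reference clusters, other thinning depths, and each library left out; those within clusters, without cluster 5, with named clusters alone among other excitatory nuclei, in other classes and at 8000 UMIs were added after seeing the data. Libraries of 1 animal were taken as repeats of that animal. The labels only number them and do not say whether they are technical repeats or separate tissue pieces. No sequences of the genes are shown. The result of 1 listed relative is not reported here.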

Additional observations from a re-analysis of the deposited data

Results flagged for a closer look

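The difference in LIPG between the 2 animals ran in opposite directions in claustrum-like neurons and in astrocytes. Mean LIPG was also lower in the 18-month animal in other excitatory neurons (15.7 and 2.98 CPM) and oligodendrocytes (4.30 and 1.38 CPM). It was lower, with overlap, in CGE-type (3.19 and 2.67 CPM) and striatal projection neurons (0.975 and 0.295 CPM). The 18-month minus 17-month difference in astrocytes exceeded that in claustrum-like neurons by 2.76 log2 units (edgeR interaction test, adjusted p = 0.00281), with higher levels in 3 of 3 18-month libraries of astrocytes and lower levels in 3 of 3 of claustrum-like neurons. The astrocyte values rest on 36 counts of LIPG, and with each library left out in turn the interaction ran from 2.40 to 2.99 log2 units and the adjusted p from 0.000877 to 0.197. Groups of 2 and 3 libraries were too small to look for single outlying libraries.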

How the results depend on the processing

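With 5 libraries of 2 animals, the results describe these tissue pieces; genes at a few CPM, such as LIPG, JHY and IL19 outside claustrum-like neurons, rest on few counts. Of 682 alternatives run for 61 single-gene results, 621 kept direction and side of the threshold, 51 lost a call, 6 gained one and 4 changed sign. The 4 were all of uncalled animal differences: SNTB1, 0.03 log2 units, was -0.20 without 17-month library 2, -0.003 without 18-month library 2, between -0.20 and 0.29 over all libraries left out, and -0.18 within cluster 1, and IL19 was -0.13 within cluster 1. Among claustrum-like clusters 6 genes passed, also with each library left out, and 5 without cluster 5. Among other excitatory clusters 8 passed, but 5 did at a doublet rate of 1.6% per 1000 nuclei and 5 with named clusters alone. Between animals, 4 genes passed, 2 to 5 with each library left out, 2 within cluster 1, 1 within cluster 2 and 3 within cluster 3; in all genes, 1393 calls became 217 without 17-month library 1 and 261 without 17-month library 2, where the lone library is assumed to vary like the others. Library numbers did not pair the animals (correlations of -0.21 and -0.07 for same-numbered libraries); a replicate block gave 5 genes, adding SLC24A4, and 883 calls in all. The 19 calls outside excitatory neurons ran from 17 to 21 with each library left out. The 18 family calls ran from 13 to 18 with each library left out and were 7 with the 307 unnamed nuclei as reference. Mean genes per nucleus, 2.07 at 2000 UMIs, was 2.05 to 2.10 with each library left out, 1.36 at 1000, 3.68 at 8000 and 4.51 unthinned; co-detected pairs, 6 at 2000 UMIs, were 1 at 1000 and 12 unthinned, and 6 to 8 with each library left out. The UMIs kept set these last changes.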
